A study of Homo sapiens with 12 samples.

Results

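The genes described here are 38 genes of homologous recombination, the Fanconi anaemia pathway and the DNA damage checkpoint, taken by gene symbol from a list that was drawn up with earlier results of these data known. All 38 were found among the 57773 Ensembl gene identifiers of the deposited expression table, and all 38 were among the 19591 genes tested. They were measured by RNA sequencing in RPE1 cells, a line of human retinal pigment epithelial cells immortalised with telomerase. The cells were transfected for 24 hours with an siRNA against Anillin (gene symbol ANLN, a scaffold of the contractile ring that divides a cell) or with a non-targeting control siRNA. They were stained with the DNA dye Hoechst at 2 μg/mL for 60 minutes at 37 °C, and flow cytometry separated a 2N gate from a 4N gate. This gave 4 groups with 3 biological replicates each, named by siRNA and gate: control 4N and control 2N received the non-targeting siRNA, and Anillin 4N and Anillin 2N the siRNA against Anillin. All 4 groups were transfected, stained and sorted. A gate on DNA content alone takes cells in G2 or mitosis and cells in G1 with a doubled genome into the same 4N population, and each library is a bulk sample of its gate, so a change in the mix of cells and a change in RNA per cell cannot be told apart.

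Homologous recombination copies an intact sister sequence into a broken or stalled DNA duplex. BRCA1 with its partner BARD1 promotes the cutting back of the broken end, PALB2 and BRCA2 act in the loading of the strand-exchange filament, and XRCC2, XRCC3, RAD51AP1 and RAD54L assist filament assembly or strand invasion. The Fanconi core complex and the ubiquitin-conjugating enzyme UBE2T attach ubiquitin to the FANCD2 and FANCI pair at DNA crosslinks, and the kinases ATM and ATR signal damage to CHEK2 and CHEK1. Many of these genes are transcribed mainly in proliferating cells, with RNA that peaks in S phase or G2.

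The promoter windows of 6 of the 38 genes are shown because these genes mark the ends of the range: POLQ, BRCA1 and UBE2T had the largest falls in Anillin 4N against control 4N cells, and FANCF, ATM and FANCL the smallest changes. Each window runs from 250 bases before to 50 bases after the gene start, as given by RefSeq on build GRCh38.p14, and is written 5′ to 3′ on the gene's strand. Capitals mark matches, on either strand, to the cell cycle homology region (CHR) motif TTTGAA and to the NF-Y motif CCAAT.
POLQ: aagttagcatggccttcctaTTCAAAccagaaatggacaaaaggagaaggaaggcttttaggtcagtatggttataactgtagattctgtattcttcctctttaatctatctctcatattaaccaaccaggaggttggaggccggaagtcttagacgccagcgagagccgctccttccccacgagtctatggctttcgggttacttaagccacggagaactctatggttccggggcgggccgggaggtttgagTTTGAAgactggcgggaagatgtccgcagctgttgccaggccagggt
BRCA1: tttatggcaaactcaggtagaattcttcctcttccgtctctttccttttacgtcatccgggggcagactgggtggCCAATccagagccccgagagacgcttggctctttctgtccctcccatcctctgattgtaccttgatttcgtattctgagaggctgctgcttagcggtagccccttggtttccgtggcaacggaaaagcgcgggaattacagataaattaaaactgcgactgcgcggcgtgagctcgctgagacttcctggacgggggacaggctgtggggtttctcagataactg
UBE2T: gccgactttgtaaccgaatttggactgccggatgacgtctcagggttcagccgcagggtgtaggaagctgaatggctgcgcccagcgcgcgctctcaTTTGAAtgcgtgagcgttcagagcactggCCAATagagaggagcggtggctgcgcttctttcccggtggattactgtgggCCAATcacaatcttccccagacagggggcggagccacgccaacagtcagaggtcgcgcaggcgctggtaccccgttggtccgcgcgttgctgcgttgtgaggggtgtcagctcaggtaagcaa
FANCF: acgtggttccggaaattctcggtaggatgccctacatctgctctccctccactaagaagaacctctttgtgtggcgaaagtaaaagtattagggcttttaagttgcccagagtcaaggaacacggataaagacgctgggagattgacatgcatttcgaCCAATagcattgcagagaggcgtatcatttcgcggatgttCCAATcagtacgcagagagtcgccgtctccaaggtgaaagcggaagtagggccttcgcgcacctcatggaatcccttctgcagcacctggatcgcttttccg
ATM: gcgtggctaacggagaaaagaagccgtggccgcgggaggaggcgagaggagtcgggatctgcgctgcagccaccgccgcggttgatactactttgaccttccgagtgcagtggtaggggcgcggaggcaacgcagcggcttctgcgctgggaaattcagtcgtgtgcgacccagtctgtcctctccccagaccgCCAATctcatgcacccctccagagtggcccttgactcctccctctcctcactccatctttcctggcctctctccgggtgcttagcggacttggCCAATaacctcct
FANCL: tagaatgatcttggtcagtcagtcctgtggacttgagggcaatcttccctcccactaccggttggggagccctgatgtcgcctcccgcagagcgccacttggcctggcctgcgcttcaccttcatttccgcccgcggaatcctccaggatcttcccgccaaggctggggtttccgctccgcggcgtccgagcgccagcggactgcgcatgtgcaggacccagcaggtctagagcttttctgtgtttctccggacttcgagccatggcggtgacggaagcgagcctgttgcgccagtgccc
The windows lie at chr3:121545939-121546238 on the minus strand (POLQ), chr17:43125315-43125614 on the minus strand (BRCA1), chr1:202341887-202342186 on the minus strand (UBE2T), chr11:22625774-22626073 on the minus strand (FANCF), chr11:108223075-108223374 on the plus strand (ATM) and chr2:58241276-58241575 on the minus strand (FANCL). The POLQ window held 2 CHR matches, TTCAAA at -230 and TTTGAA at 3 relative to the start, and the UBE2T window held 1 at -153. CCAAT was found once in BRCA1, at -175, and 2 times each in UBE2T, FANCF and ATM, while FANCL had no match to any motif searched. CCAAT was thus present at both ends of the range of response, CHR matches were in windows of 2 of the 3 genes with the largest falls and in none of FANCF, ATM and FANCL, and none of the 6 windows held an E2F-type match. Over the 35 members with a window, CHR matches were about as common as in tested genes (11.4% against 11.0%).

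E2F-type matches were searched as TTTCCCGC, TTTCGCGC, TTTGCCGC and TTTGGCGC on both strands, and partial overlaps with other motifs were not removed. RefSeq windows were found for 35 of the 38 genes; RAD54B, FANCI and RMI2 had none. Of these 35, 8 (22.9%) held an E2F-type match, against 3.31% of all 35116 windows and 4.67% of the 17127 windows of tested genes. A stretch of 28 bases around 1 match is printed for each of these 8 genes, which were chosen after the search, with the match in capitals. The FANCC window held 2 matches, of which 1 is shown.
XRCC2: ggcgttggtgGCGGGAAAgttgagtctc
FANCD2: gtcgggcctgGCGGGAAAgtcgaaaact
FANCA: ctacaccgcgGCGGCAAAgccaaacgca
EXO1: aaggtcagccTTTCGCGCgctgtgtagg
TOPBP1: cgcgcggttgGCGCGAAAgtcggttccc
RMI1: gcgcgagcgcGCGGCAAAtcgggcggga
FANCC: cggggcttccGCGCGAAAccgggaacac
MSH6: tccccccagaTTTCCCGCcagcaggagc
They lie, on GRCh38.p14, at chr7:152676103-152676130 on the minus strand (XRCC2), chr3:10026425-10026452 on the plus strand (FANCD2), chr16:89816802-89816829 on the minus strand (FANCA), chr1:241848198-241848225 on the plus strand (EXO1), chr3:133661931-133661958 on the minus strand (TOPBP1), chr9:83980763-83980790 on the plus strand (RMI1), chr9:95317864-95317891 on the minus strand (FANCC) and chr2:47783138-47783165 on the plus strand (MSH6). Among genes with a window, 6 of the 19 that fell at least 2-fold in Anillin 4N against control 4N cells held such a match, and 2 of the 16 others did (FANCC and MSH6). CCAAT was in 16 of the 35 windows (45.7%, against 34.6% of all windows and 34.3% of those of tested genes), and TTTGAA in 4 (11.4%, against 15.2% and 11.0%). By the same split, CCAAT was in 9 of the 19 and 7 of the 16, and TTTGAA in 3 of the 19 and 1 of the 16. A match describes these letters only and was not tested as a binding site.

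Expression is given as RPM, the reads assigned to a gene per 1000000 reads of the library's effective size, with log2 changes taken on log2(RPM + 0.25). Reads in genes ranged from 17412743 to 61760470 per library, and the 38 genes had 21 to 5343 reads each per library. The siRNA target had 80.0 to 121 RPM in control 2N, 477 to 539 in control 4N, 4.48 to 6.33 in Anillin 4N and 2.53 to 5.44 in Anillin 2N libraries, so the 6 Anillin siRNA libraries were below the 6 control libraries. Of the pigment epithelium markers, MITF and OTX2 were measured at 26.2 to 43.6 RPM as group means, while RPE65, BEST1, RLBP1, TYR, TYRP1 and PMEL were at 1.88 or less; the epithelial and mesenchymal genes KRT8, KRT18 and VIM were at 372 to 7241. Of the blood markers, CD3E and HBB were at 0 and CD68, which many cell types express, made up most of the summed level; the markers of other epithelia and muscle summed to at most 0.877 RPM in every library. Control 2N replicate 2 stood apart from the other control 2N libraries in these genes: it had the lowest value of its group for 31 of the 38. Control 4N replicate 2 had the lowest value of its group for 28. Shares of all tested genes were not computed for these counts.

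Most of the 38 genes had the 4 groups in the same order. The mean was highest in control 4N, lower in control 2N and lowest in the 2 Anillin groups for 34 of the 38. No share of all tested genes with this order was computed. Summed over the 38 genes, the level was 1307, 1178 and 1259 RPM in the control 4N libraries, 816, 691 and 816 in control 2N, and 553, 549 and 563 in Anillin 4N. It was 535, 541 and 539 in the Anillin 2N libraries. The Anillin libraries thus lay below every control library, and those of the 2N and 4N gates lay close together. For 24 of the 38 genes, every one of the 6 Anillin libraries was below every one of the 6 control libraries, which held for 11.1% of all genes tested.

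**Figure D1:**
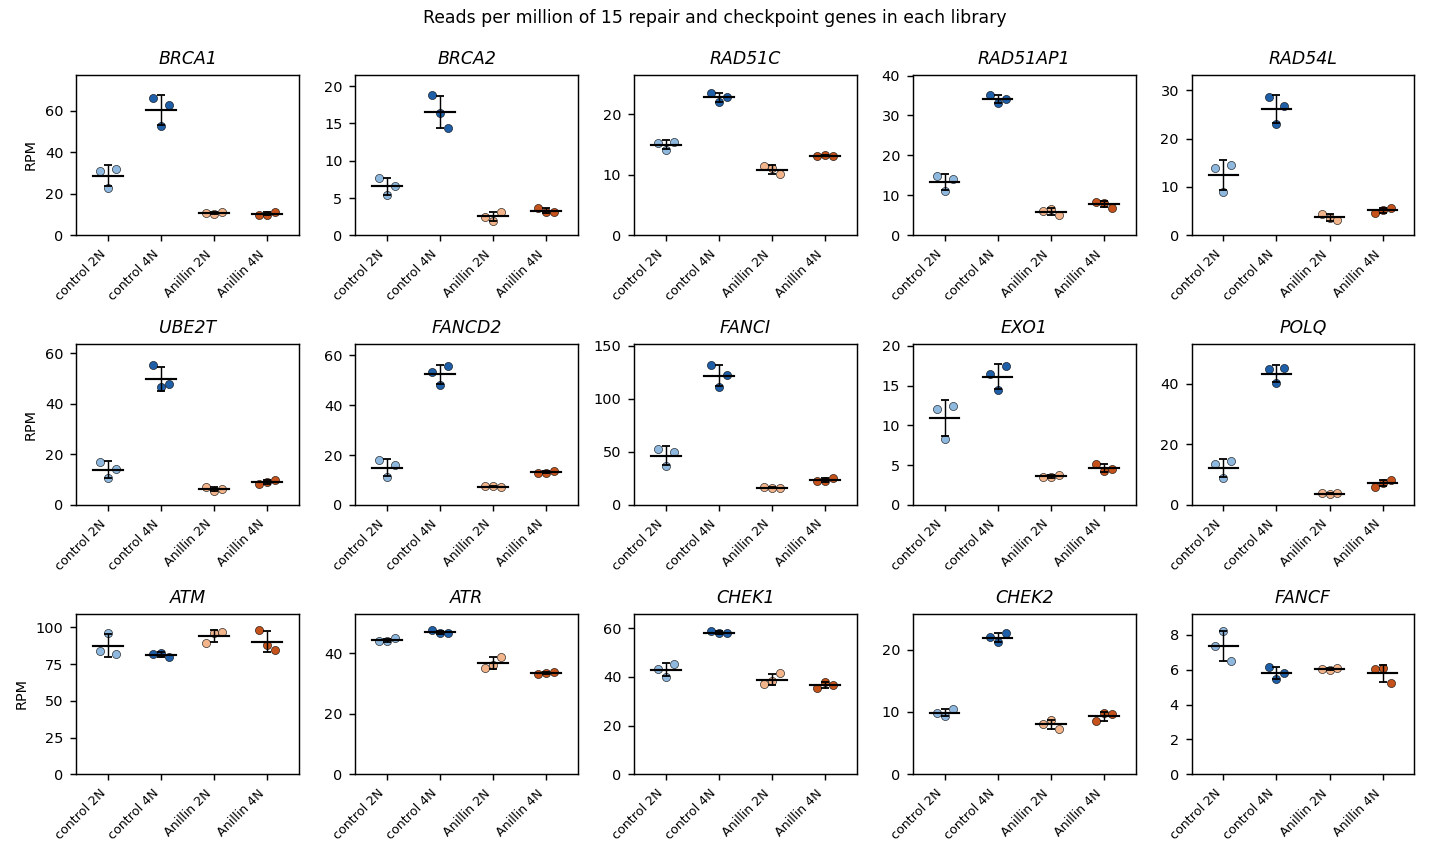
RPM (linear axis from 0) of 15 of the 38 genes in each of the 12 libraries, 3 per group; points are libraries, horizontal bars group means and vertical bars SD. The 3 control 4N libraries sit highest in every panel except those of ATM and FANCF.

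The first comparison asks how cells sorted in the 4N gate after Anillin siRNA differed from those sorted in the 4N gate of control cultures. Of the 38 genes, 36 were lower in Anillin 4N cells (limma, Benjamini-Hochberg adjusted p under 0.05), against 28.1% of all tested genes, and 0 were higher, against 24.6%. The median change was -1.28 on the log2 scale, beside -0.00 over all genes tested, and 21 of the 38 fell at least 2-fold, against 3.47% of all genes. The sizes depend on the scale: on log2 of the deposited RPKM + 0.5, where 18 members could be tested, the median was -0.77, against -1.45 for the same 18 on RPM, and BRCA1 changed by -0.99 in place of -2.52. BRCA1 was among those of the 18 that reached the filter of 0.5 RPKM in control 4N libraries only. Libraries of both groups did not overlap for the same 36 genes, with Anillin 4N lower, against 31.7% of all genes. At an unadjusted p under 0.05, 1 gene was higher (ATM), and limma-voom on the recovered reads also called 0 higher. By role, the median was -2.18 for the FANCD2 and FANCI pair, -2.10 for the cofactors and motors of strand invasion (RAD54L, RAD54B and RAD51AP1) and -0.70 for the checkpoint kinases and sensors.

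All 5 genes of the BRCA1 and BRCA2 axis fell. BRCA1 (ENSG00000012048), the ubiquitin ligase that licenses end resection, had 66.2, 52.6 and 62.6 RPM in control 4N and 9.98, 9.78 and 11.1 in Anillin 4N libraries, with 31.0, 22.8 and 32.0 in control 2N and 10.8, 10.3 and 11.5 in Anillin 2N. The 6 Anillin libraries stood at one low level, under every control library. BRCA1 fell by 2.52 on the log2 scale in Anillin 4N against control 4N (SE 0.11, adjusted p = 1.07e-12). BRCA2 (ENSG00000139618), a tumour suppressor that acts in strand exchange, had 18.8, 16.3 and 14.4 RPM in control 4N, 3.65, 3.10 and 3.13 in Anillin 4N, 7.66, 5.43 and 6.58 in control 2N and 2.52, 1.96 and 3.15 in Anillin 2N libraries. No BRCA2 value of an Anillin library reached that of any control library, and the change in 4N cells was -2.24 (SE 0.15, adjusted p = 5.2e-10). The helicase BRIP1 and the BRCA1 partner BARD1 changed by -1.80 and -1.57. PALB2, the bridge between BRCA1 and BRCA2, changed least within this group, at -0.34 (SE 0.07, adjusted p = 0.000801).

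The 5 paralog genes XRCC2, XRCC3, RAD51B, RAD51C and RAD51D, whose products work together in recombination, all fell but by unequal amounts: XRCC2 by 2.01, XRCC3 by 1.76, RAD51C by 0.78, RAD51B by 0.69 and RAD51D by 0.28. RAD51C (ENSG00000108384), a subunit of both paralog complexes, had 23.4, 22.0 and 22.9 RPM in control 4N, 13.1, 13.2 and 13.2 in Anillin 4N, 15.3, 14.2 and 15.5 in control 2N and 11.4, 11.0 and 10.1 in Anillin 2N libraries. The replicates were close, and no library of one group overlapped another group. RAD51D was the one called member whose fall was lost under other settings: its adjusted p of 0.0118 became 0.0865 with library totals as the only scaling, 0.0807 without Anillin 4N replicate 1 and 0.0574 without control 4N replicate 3.

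Of the cofactors and motors, RAD54L (ENSG00000085999), a DNA translocase, had 28.6, 23.0 and 26.7 RPM in control 4N, 4.53, 5.14 and 5.73 in Anillin 4N, 13.9, 8.97 and 14.6 in control 2N and 4.48, 3.65 and 3.06 in Anillin 2N libraries. The low control 2N library was replicate 2, and it still lay above every Anillin library. RAD54L changed by -2.29 (SE 0.16, adjusted p = 7.06e-10). RAD51AP1 (ENSG00000111247), which promotes the formation of joint molecules, had 35.1, 33.1 and 34.0 RPM in control 4N, 8.45, 8.01 and 6.92 in Anillin 4N, 14.8, 11.1 and 14.0 in control 2N and 6.14, 6.66 and 5.02 in Anillin 2N libraries. Its change was -2.10 (SE 0.11, adjusted p = 2.16e-11), whereas RAD54B, a paralog of RAD54L, changed by -0.59 (SE 0.08, adjusted p = 3.04e-06).

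In the Fanconi pathway, 8 of the 9 genes of the core complex group and both genes of the FANCD2 and FANCI pair fell. UBE2T (ENSG00000077152), the E2 enzyme of the pathway, had 55.4, 46.6 and 47.8 RPM in control 4N, 8.35, 9.06 and 9.70 in Anillin 4N, 17.0, 10.6 and 14.4 in control 2N and 7.14, 5.56 and 6.30 in Anillin 2N libraries, and changed by -2.43 (SE 0.13, adjusted p = 1.99e-11). Control 4N libraries stood far above the other 9. FANCD2 (ENSG00000144554) had 53.4, 48.3 and 55.7 RPM in control 4N, 13.0, 12.7 and 13.5 in Anillin 4N, 17.9, 11.1 and 15.8 in control 2N and 7.44, 7.37 and 7.06 in Anillin 2N libraries, and changed by -1.98 (SE 0.12, adjusted p = 8.49e-11). Its Anillin 4N libraries lay above the Anillin 2N ones. They were also above control 2N replicate 2 but below control 2N replicates 1 and 3. FANCI (ENSG00000140525), the partner of FANCD2, had 131, 111 and 123 RPM in control 4N, 22.7, 22.2 and 25.1 in Anillin 4N, 53.02, 36.2 and 50.1 in control 2N and 17.2, 16.0 and 15.8 in Anillin 2N libraries, and changed by -2.37 (SE 0.10, adjusted p = 1.36e-12). The core subunits FANCB, FANCA and FANCG fell by 2.07, 1.89 and 1.55, the translocase FANCM and the subunits FANCC and FANCE by 0.77, 0.72 and 0.54, and FANCL, the ligase subunit, by 0.26.

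FANCF (ENSG00000183161), an adaptor of the core complex singled out after its values were seen, did not pass the test. It had 6.18, 5.50 and 5.83 RPM in control 4N, 6.05, 6.08 and 5.24 in Anillin 4N, 7.37, 8.23 and 6.497 in control 2N and 6.03, 5.97 and 6.08 in Anillin 2N libraries. Control 4N and both Anillin groups overlapped, and control 2N lay above them. The difference of Anillin 4N from control 4N was -0.01 (SE 0.10, adjusted p = 0.932), and it lay between -0.05 and 0.09 over the alternative settings.

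All 5 genes of resection and dissolution fell. EXO1 (ENSG00000174371), an exonuclease that cuts back DNA ends, had 16.4, 14.5 and 17.5 RPM in control 4N, 5.13, 4.20 and 4.51 in Anillin 4N, 12.1, 8.26 and 12.4 in control 2N and 3.49, 3.50 and 3.77 in Anillin 2N libraries. Anillin libraries of both gates lay under all control libraries, and the change in 4N cells was -1.75 (SE 0.13, adjusted p = 1.84e-09). The helicase BLM fell by 2.27, its cofactors RMI2 and RMI1 by 1.65 and 1.13, and the topoisomerase TOP3A by 0.50. POLQ (ENSG00000051341), the polymerase of theta-mediated end joining, had 44.9, 40.1 and 45.1 RPM in control 4N, 6.0, 7.35 and 8.12 in Anillin 4N, 13.4, 8.97 and 14.5 in control 2N and 3.87, 3.43 and 3.95 in Anillin 2N libraries. Its groups did not overlap, and its change of -2.57 (SE 0.14, adjusted p = 2.72e-11) was the largest of the 38, with BRCA1 next. MSH6, the mismatch recognition subunit, fell by 0.65 (SE 0.07, adjusted p = 1.61e-07).

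Among the checkpoint genes, TOPBP1, an activator of ATR, fell by 1.35, ATRIP, the ATR partner, by 0.74 and RAD1, a subunit of the damage clamp, by 0.70. CHEK2 (ENSG00000183765), the effector kinase of ATM, had 22.0, 21.1 and 22.6 RPM in control 4N, 8.51, 9.84 and 9.62 in Anillin 4N, 9.90, 9.29 and 10.4 in control 2N and 8.03, 8.64 and 7.33 in Anillin 2N libraries, and changed by -1.21 (SE 0.08, adjusted p = 8.32e-10). Control 4N was high and the other 3 groups were near each other. CHEK1 (ENSG00000149554), the effector kinase of ATR, had 58.9, 57.9 and 57.98 RPM in control 4N, 35.3, 37.9 and 36.9 in Anillin 4N, 43.4, 40.04 and 45.4 in control 2N and 37.0, 38.3 and 41.5 in Anillin 2N libraries, and changed by -0.66 (SE 0.06, adjusted p = 2.69e-08). Here too control 4N stood alone, since Anillin 2N overlapped control 2N and Anillin 4N.

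The apical kinases changed least among the checkpoint genes. ATR (ENSG00000175054) had 47.5, 46.6 and 46.7 RPM in control 4N, 33.0, 33.4 and 33.7 in Anillin 4N, 44.0, 44.1 and 44.9 in control 2N and 35.2, 36.0 and 38.8 in Anillin 2N libraries, and changed by -0.49 (SE 0.05, adjusted p = 2.62e-07). ATM (ENSG00000149311) had 82.0, 82.6 and 79.7 RPM in control 4N, 98.5, 88.2 and 84.5 in Anillin 4N, 84.2, 96.3 and 81.7 in control 2N and 89.3, 96.5 and 96.9 in Anillin 2N libraries. For ATM the Anillin 4N libraries lay just above the control 4N ones, with a difference of 0.15 (SE 0.07, adjusted p = 0.0663). ATM passed the threshold as higher in 4 alternatives: library totals only (0.25, adjusted p = 0.00458), quantile scaling (0.28, adjusted p = 0.00274), the 2 groups fitted alone (adjusted p = 0.0322) and without Anillin 4N replicate 3 (0.19, adjusted p = 0.0322).

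**Figure D2:**
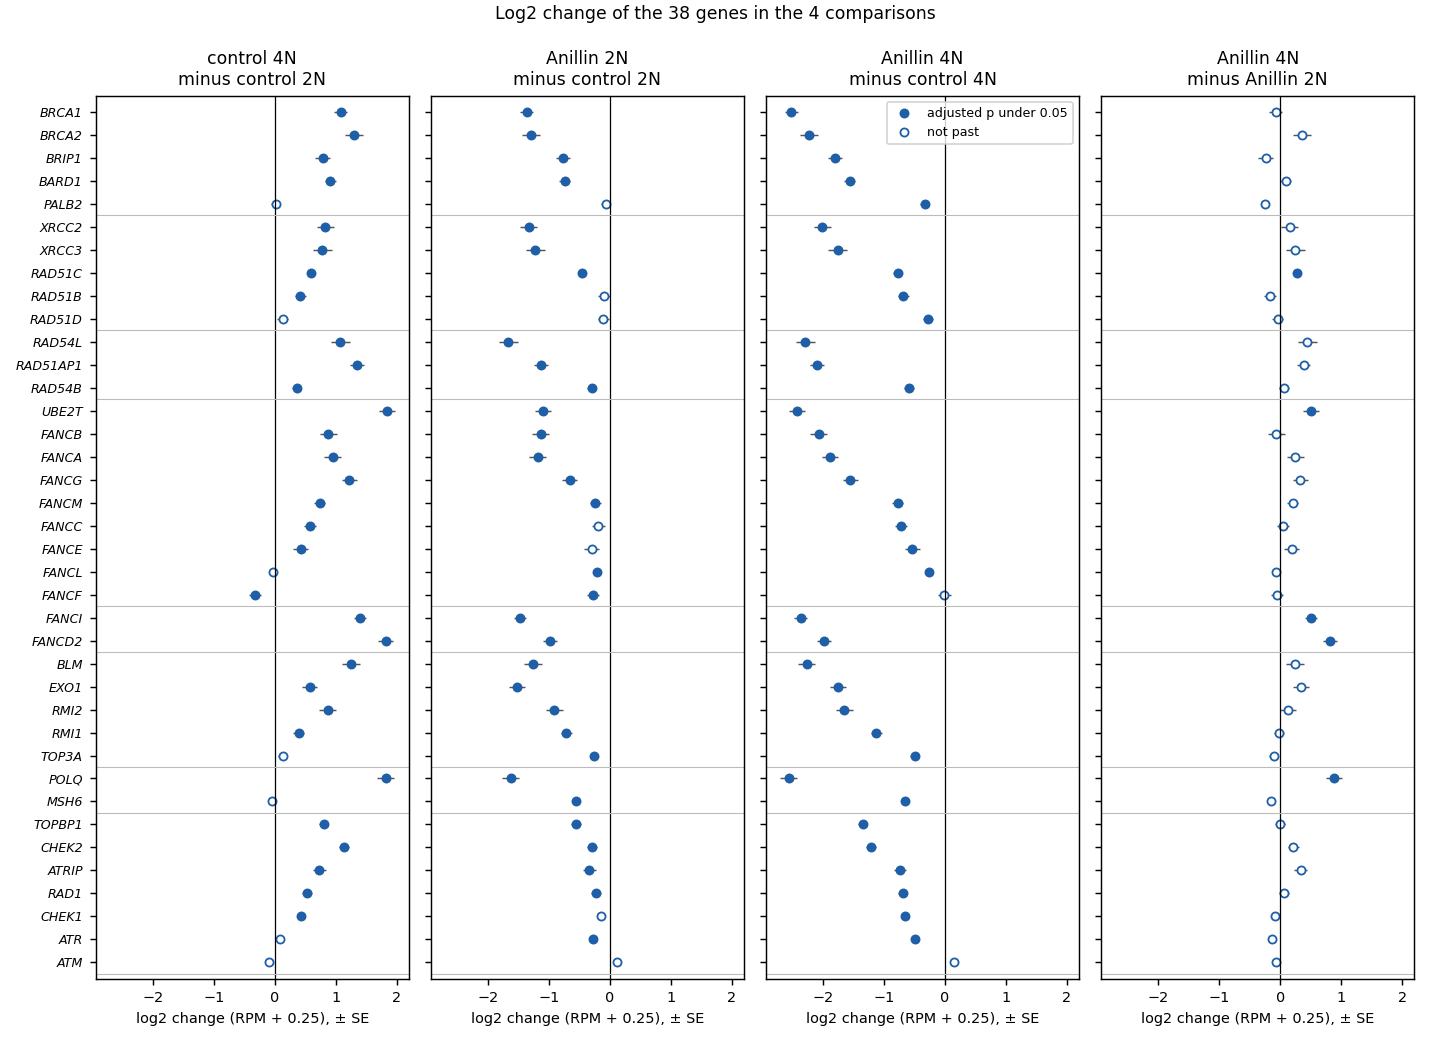
Log2 change of each of the 38 genes (rows, grouped by role between grey lines) in 4 comparisons, with SE bars; filled points passed an adjusted p of 0.05 (limma) and open points did not. In Anillin 4N against control 4N 36 filled points lie left of 0, in control 4N against control 2N 30 lie right of it, and in Anillin 4N against Anillin 2N 33 points are open.

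In the control cultures, the comparison of 4N with 2N cells gives the difference between the gates without Anillin siRNA. Of the 38 genes, 30 were higher in control 4N than in control 2N cells, against 21.2% of all tested genes, and 11 of them at least 2-fold, against 2.13%. The median change was 0.76, beside -0.00 over all genes. UBE2T, POLQ and FANCD2 led with 1.84 (SE 0.13, adjusted p = 2.21e-09), 1.82 (SE 0.14, adjusted p = 7.19e-09) and 1.82 (SE 0.12, adjusted p = 5.75e-10), followed by FANCI at 1.40 and RAD51AP1 at 1.35. BRCA2, BLM, FANCG, CHEK2, BRCA1 and RAD54L also rose at least 2-fold, by 1.31, 1.25, 1.22, 1.13, 1.08 and 1.07. FANCF fell by 0.32 (SE 0.10, adjusted p = 0.0173), against 19.6% of all tested genes that were lower; its adjusted p was 0.101 without control 2N replicate 2 and 0.0593 without control 4N replicate 2. The 7 genes that did not pass were PALB2, RAD51D, FANCL, TOP3A, MSH6, ATM and ATR, with changes between -0.10 and 0.13. Without control 2N replicate 2 the count was 29 higher, since FANCE, at 0.43, dropped to 0.25 (adjusted p = 0.0738), and MSH6 passed as lower.

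Anillin 2N cells were compared with control 2N cells to see whether the change was present within the 2N gate. Here 31 of the 38 genes were lower after Anillin siRNA, against 17% of all tested genes, and 13 of them at least 2-fold, against 1.07%. The median change was -0.61, beside -0.02 over all genes. RAD54L (-1.66, SE 0.16, adjusted p = 2.7e-07), POLQ (-1.62, SE 0.14, adjusted p = 8.31e-08), EXO1 (-1.52, SE 0.13, adjusted p = 7.64e-08), FANCI (-1.47, SE 0.10, adjusted p = 7.21e-09) and BRCA1 (-1.36, SE 0.11, adjusted p = 3.26e-08) had the largest falls. In the checkpoint group no gene reached 2-fold: TOPBP1 changed by -0.55, ATRIP by -0.34, CHEK2 by -0.30, ATR by -0.27 and RAD1 by -0.23. RAD51B, RAD51D, PALB2, FANCC, FANCE, ATM and CHEK1 did not pass, with values from -0.30 for FANCE to 0.11 for ATM. Under the alternatives CHEK1 passed as lower in 3 of 14, FANCE in 2 of 13 and FANCC in 1 of 13. By limma-voom CHEK1 (adjusted p = 0.0458) and FANCE (adjusted p = 0.0325) passed. By limma 0 genes were higher, against 12.5% of all genes; the count was also 0 at an unadjusted p under 0.05 and by limma-voom. Without control 2N replicate 2, 32 genes were lower and ATM was higher at 0.18 (adjusted p = 0.0258). In that run FANCC, FANCE (-0.48, adjusted p = 0.00114) and CHEK1 passed as lower, and FANCF and FANCM did not pass. FANCF (-0.27, adjusted p = 0.0498), FANCM (-0.24, adjusted p = 0.0481) and RAD1 (adjusted p = 0.0342) were close to the threshold and lost the call in 10 of 14, 10 of 13 and 8 of 14 alternatives. ATRIP lost it in 5 of 14, with -0.15 on RPKM and adjusted p of 0.0525 to 0.105 over the 5, CHEK2 in 2 of 13 (without control 2N replicate 3, adjusted p = 0.0573; leaving out replicate 3 of Anillin 2N, 0.0602) and FANCL in 1 of 13 (0.0508, again without the latter library).

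Within the cells treated with Anillin siRNA, 4N was compared with 2N. Of the 38 genes 5 were higher in Anillin 4N cells, against 3.36% of all tested genes, and 33 did not pass. These were POLQ (0.88, SE 0.14, adjusted p = 0.000435), FANCD2 (0.82, SE 0.12, adjusted p = 0.000134), FANCI (0.50, SE 0.10, adjusted p = 0.00542), UBE2T (0.50, SE 0.13, adjusted p = 0.0269) and RAD51C (0.27, SE 0.07, adjusted p = 0.025). All 5 were also higher in 4N than 2N control cells, and none reached 2-fold here. The median over the 38 was 0.11, beside 0.01 over all genes. By limma 0 genes were lower, against 2.14% of all genes, and by limma-voom also 0. At an unadjusted p under 0.05 in limma, 13 were higher and 3 were lower (ATR, MSH6 and PALB2), and no share over all genes was computed at that threshold. Limma-voom called 3 genes higher, and UBE2T (adjusted p = 0.0925) and RAD51C (adjusted p = 0.0679) did not pass there. UBE2T also lost its call without replicate 2 or 3 of either Anillin group (adjusted p from 0.0868 to 0.147), and RAD51C without any Anillin library except 2N replicate 1 (adjusted p from 0.0635 to 0.119). The count was 3 without Anillin 2N replicate 3, and likewise when Anillin 4N replicate 2 was left out. It was 7 with library totals only and with the 2 groups fitted alone, where RAD51AP1 (adjusted p = 0.0406 and 0.0452) and ATRIP (0.0446 and 0.0428) also passed as higher.

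The interaction tests whether the difference between 4N and 2N cells was itself changed by Anillin siRNA. The signed log2 difference was lower after Anillin siRNA for 25 of the 38 genes, against 10.5% of all tested genes that passed in this direction. The largest interaction values were those of UBE2T (-1.34, SE 0.18, adjusted p = 5.67e-05), BRCA1 (-1.16, SE 0.15, adjusted p = 4.15e-05), BRIP1 (-1.03, SE 0.17, adjusted p = 0.000304) and BLM (-1.01, SE 0.20, adjusted p = 0.00197). BRCA1 rose by 1.08 from control 2N to control 4N and differed by -0.07 (SE 0.11, adjusted p = 0.775) between the Anillin gates, and BRIP1 rose by 0.79 and differed by -0.24 (SE 0.12, adjusted p = 0.29). POLQ and FANCD2 rose in both, with interactions of -0.94 (SE 0.20, adjusted p = 0.00258) and -0.999 (SE 0.16, adjusted p = 0.000358). EXO1 did not pass (-0.24, SE 0.18, adjusted p = 0.406): its change after Anillin siRNA was -1.52 at 2N and -1.75 at 4N. By limma 0 interactions were higher, against 7.97% of all genes; the count was also 0 at an unadjusted p under 0.05 and by limma-voom. Across the 38 genes, the signed difference was lower in Anillin than in control cells for 36, and no share over all genes was computed for this count. A lower value was not always a smaller gap: PALB2 differed by 0.02 in control and by -0.25 in Anillin cells. The 2 differences, which share no library, had a Pearson r of 0.80 and a Spearman rho of 0.73. Genes are not independent replicates and share library depth.

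**Figure D3:**
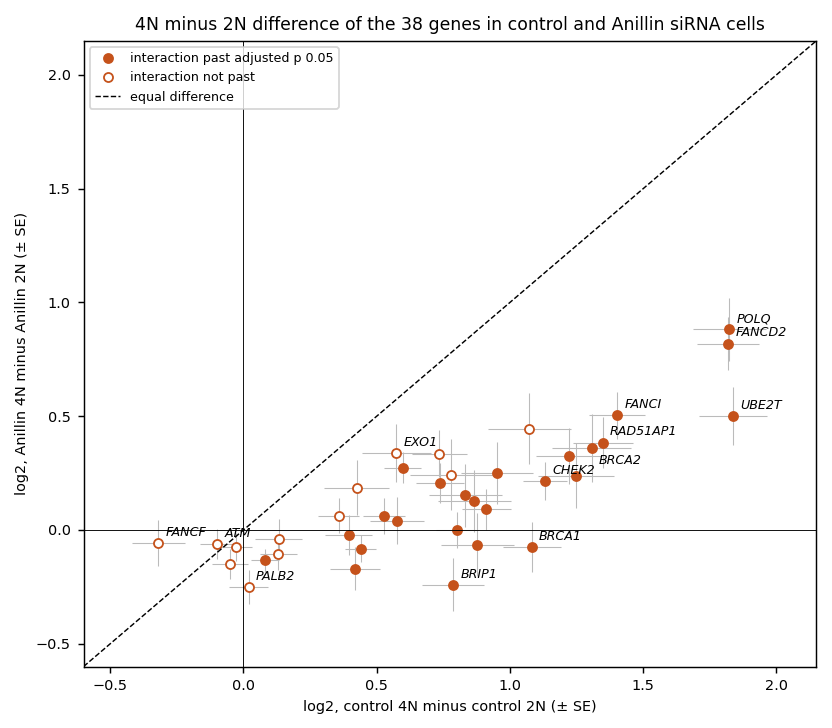
Log2 difference between 4N and 2N cells of each of the 38 genes, in control cells (horizontal axis) and after Anillin siRNA (vertical axis), with SE bars; filled points passed the interaction test (limma, adjusted p under 0.05) and the dashed line marks equal differences. The 2 points above the line are FANCF and ATM, and POLQ and FANCD2 lie highest.

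Genes that mark cell cycle position and the p53 response moved with these groups. The summed level of 10 G2/M genes ranged from 4022 to 4537 RPM in control 4N, 540 to 761 in control 2N, 566 to 621 in Anillin 4N and 188 to 198 in Anillin 2N libraries, and all 10 passed as lower in Anillin 4N than control 4N cells, with a median of -2.70. For 10 G1/S genes the sums were 345 to 435, 222 to 343, 159 to 175 and 147 to 157 RPM in the same order; 9 of 10 passed as lower in Anillin 4N than control 4N cells (median -1.53) and 9 of 10 in Anillin 2N than control 2N cells (median -1.07). The G1/S sums hide members that moved the other way between the gates: in control cells 5 were higher at 4N and CCNE2 (-1.42) and CCNE1 (-0.99) lower, and in Anillin cells 1 was higher at 4N and 3 lower (median -0.14) although the sum was higher. For 10 targets of p53 the sums were 640 to 746 RPM in control 4N, 610 to 693 in control 2N, 1720 to 1782 in Anillin 4N and 928 to 974 in Anillin 2N, and all 10 passed as higher in both gates after Anillin siRNA. Of all tested genes, 28.1% were lower and 24.6% higher after Anillin siRNA in the 4N gate, and 17% and 12.5% in the 2N gate. The cell cycle sums of Anillin 4N thus lay near or under those of control 2N, as did those of the 38 genes, but the p53 sum lay far above. The part of cell cycle position and of the p53 response in the changes of the 38 genes was not tested.

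**Figure D4:**
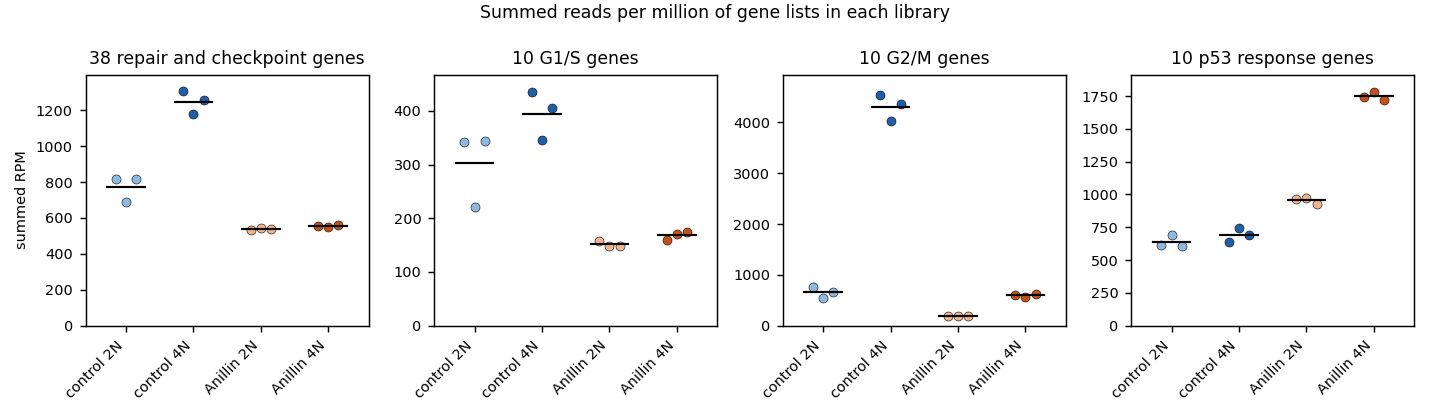
Summed RPM (linear axes from 0) of the 38 genes and of 3 lists of 10 genes in each of the 12 libraries; points are libraries and bars group means. Control 4N is highest for the 38 genes and for both cell cycle lists, and Anillin 4N is highest for the p53 list, at 1720 to 1782 RPM.

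Other genes of the same pathways were taken from lists. Of 58 further genes of recombination, the Fanconi pathway and the checkpoint, 38 were lower and 5 higher in Anillin 4N than control 4N cells, against 28.1% and 24.6% of all tested genes, with a median of -0.41. The largest falls were those of CLSPN (-2.39), the adaptor that lets ATR activate CHEK1, EME1 (-2.36), a subunit of a junction-cutting nuclease, and PSMC3IP (-2.25), and the largest rises those of SWSAP1 (0.76), EME2 (0.66) and RAD52 (0.37). In control cells 33 of the 58 were higher at 4N and 3 lower, against 21.2% and 19.6% of all genes, led by HROB (1.91), PARPBP (1.83) and H2AX (1.82), with EME2 (-0.80), RAD52 (-0.31) and FAN1 (-0.21) lower. In 2N cells 32 were lower after Anillin siRNA, against 17% of all genes, CLSPN (-1.80) and EME1 (-1.58) among them, and ABRAXAS1 (0.27) and ZSWIM7 (0.24) were higher, against 12.5%. Between the Anillin gates 5 were higher at 4N, against 3.36% of all genes, the first 3 being EME1 (0.90), PARPBP (0.70) and H2AX (0.55). The interaction passed as lower for 23, against 10.5% of all genes, led by HROB (-1.55), H2AX (-1.27) and RFWD3 (-1.23), and as higher, against 7.97%, for EME2 (0.76) and RAD52 (0.46).

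Non-homologous end joining, which rejoins broken ends without a template, was described by a list of its own. Of 16 genes of non-homologous end joining and of the 53BP1 and shieldin group, 9 were lower and 4 higher in Anillin 4N than control 4N cells, none at least 2-fold, with a median of -0.56; over all tested genes 28.1% were lower and 24.6% higher, so the count of higher genes was near the background. XRCC4 (-0.89), the scaffold of the ligase, the kinase PRKDC (-0.85) and MAD2L2 (-0.77) fell most, and the polymerases POLM (0.39) and POLL (0.29) and the ligase LIG4 (0.28) rose. In control cells 7 were higher at 4N and 3 lower, against 21.2% and 19.6% of all genes, the second again near the background. In 2N cells 7 were lower after Anillin siRNA, against 17% of all genes, with PRKDC (-0.54), XRCC6 (-0.42) and RIF1 (-0.42) first. Of 6 further mismatch repair genes, 4 fell in Anillin 4N against control 4N cells, PMS2 (-0.28) among them, with a median of -0.27. No gene of these last 2 lists passed between the Anillin gates by limma; at an unadjusted p under 0.05, 4 of the 16 and 1 of the 6 did. Whether the 38 genes differed from these lists was not tested, and the values stand side by side.

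**Figure D5:**
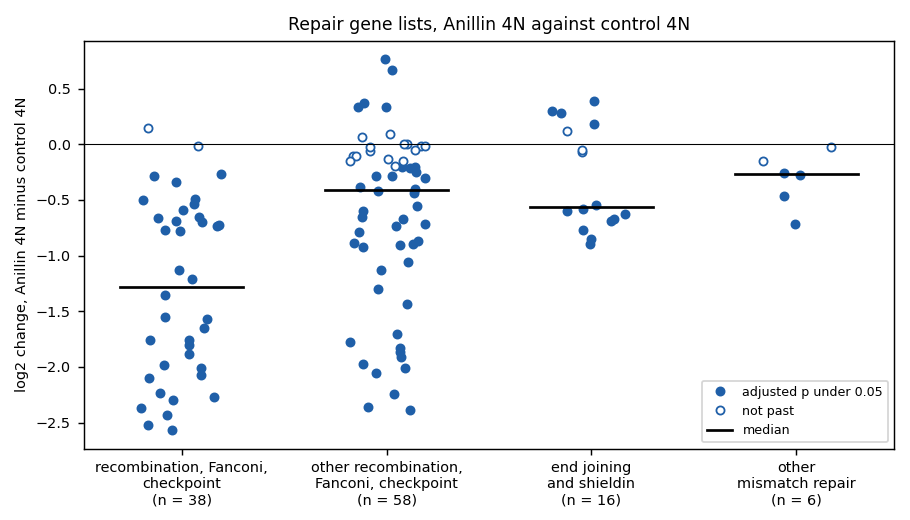
Log2 change in Anillin 4N against control 4N cells of the 38 genes and of 3 further lists of repair genes; each point is a gene, filled where it passed an adjusted p of 0.05 (limma), and bars are medians. The medians are -1.28, -0.41, -0.56 and -0.27 from left to right, and the points reach below -2 only in the first 2 columns.

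Some members share their genomic span with another tested gene. This was so for 7 on the same strand, among them CHEK1 with STT3A, ATRIP with TREX1 and RAD54B with FSBP, and for 16 on the other strand, among them ATM with NPAT and C11orf65, FANCF with GAS2, FANCI with POLG and MSH6 with FBXO11. How the authors' counting split such reads is not given in the sources used here, so the values of these genes are uncertain to that extent. The other 17 members, BRCA2, FANCD2, UBE2T, EXO1, BLM and RAD51C among them, shared their span with no tested gene.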

How the data were processed

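The authors deposited 1 table of RPKM values for 12 libraries, 3 biological replicates in each of 4 groups, with group names in the columns. Per the submitters' processing notes the tools included CASAVA 1.8.2, TopHat2 and edgeR, with build hg19, but no role is stated for any of them. Which annotation and counter were used, and whether strand was, is not given in the sources used here. By the labels' protocols, a stranded mRNA kit was used, while another label calls the RNA ribosome-depleted total RNA. Dividing by genomic span with introns makes RPKM of long genes low, so the deposited RPKM values were multiplied by length in kb to give RPM. The length was the GENCODE 29 span for 29239 genes (20 members) and the common divisor of the gene's own values for 9332 (18 members). A length was accepted only if it gave whole reads within 0.01, and such a length was found for all 38571 genes above 0. Whole reads are therefore no separate check of the lengths. Library sizes keep the authors' scaling, 0.951 to 1.04 times the reads in genes. Identifiers without a name numbered 5435.

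Genes with at least 0.5 RPM in 3 of the 12 libraries (19591) were tested on log2(RPM + 0.25) with limma 3.58.1 (trend) in R 4.3.3, with 1 mean per group over all 12 libraries and Benjamini-Hochberg adjustment over all genes; a call is an adjusted p under 0.05. The fit was tested on simulated data. Fold changes on this scale understate changes of low genes. The members and lists were chosen with earlier results of these data known. Named by rule were the 5 largest non-overlapping called changes in each comparison of 2 groups, BRCA1, BRCA2, FANCD2, ATM, ATR, CHEK1 and CHEK2, and up to 3 genes per direction of other lists; some genes this rule names are not reported here. Alternatives were other pseudocounts, no filter, RPKM + 0.5, library totals only, quantile scaling, limma-voom, fits of 2 groups and leaving out each library.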

Additional observations from a re-analysis of the deposited data

Results flagged for a closer look

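For 25 of the 38 genes the 4N minus 2N difference was tested to differ between control and Anillin siRNA cells (limma interaction, adjusted p under 0.05); all 25 values were negative. Of the Fanconi genes these were UBE2T (-1.34), FANCD2 (-0.999), FANCB (-0.94), FANCI (-0.90), FANCG (-0.90), FANCA (-0.70), FANCC (-0.53) and FANCM (-0.53). Of the BRCA1 and BRCA2 axis they were BRCA1 (-1.16), BRIP1 (-1.03), BRCA2 (-0.94) and BARD1 (-0.82). Of the recombination paralogs and cofactors they were RAD51AP1 (-0.96), XRCC2 (-0.68), RAD51B (-0.59) and RAD51C (-0.32). Of resection, dissolution and end joining they were BLM (-1.01), POLQ (-0.94), RMI2 (-0.74) and RMI1 (-0.42). Of the checkpoint genes they were CHEK2 (-0.92), TOPBP1 (-0.80), CHEK1 (-0.52), RAD1 (-0.47) and ATR (-0.22). Under the alternative settings ATR lost its call in 15 of 18, RAD51C in 9 of 19, RMI1 in 6 of 19, FANCA in 2 of 19 (limma-voom, adjusted p = 0.0557, and no filter on low values, 0.0742), XRCC2 in 2 of 18 (no filter, 0.0675, and without control 4N replicate 1, 0.0513) and RMI2 in 1 of 18 (no filter, 0.0525). FANCA changed from -0.70 to -0.46 without control 2N replicate 2 and kept its call.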

How the results depend on the processing

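No called value changed its direction under any alternative run, counting a value that passed under neither setting as unchanged. A call was counted as held if it passed under each alternative that tested the member, so an alternative that did not test it was left out. On this count, calls held for 35 of 36 members in Anillin 4N against control 4N, 29 of 31 in control 4N against 2N, 25 of 31 in Anillin 2N against control 2N, 1 of 5 (POLQ) in Anillin 4N against 2N, and 19 of 25 for the interaction. POLQ was below the RPKM filter and was not tested on RPKM + 0.5, where FANCD2, FANCI, UBE2T and RAD51C were tested and lost their calls. On deposited RPKM + 0.5, 12892 genes and 18 members were tested. In Anillin 4N against control 4N, 16 of the 18 members and 4056 of the 12892 genes were called lower (6638 genes in either direction). In control 4N against 2N, 15 of the 18 and 3079 of the 12892 were higher (4782 called). In Anillin 4N against 2N, 0 of the 18 and 336 of the 12892 were higher (461 called). In Anillin 2N against control 2N, 14 of the 18 and 2209 of the 12892 were lower (3682 called). For the interaction, 13 of the 18 and 1383 of the 12892 were lower (2019 called). The filter of this run was 0.5 RPKM in at least 3 libraries. BRCA1, RAD51C, RAD54L, FANCA, FANCD2 and ATRIP reached 0.5 RPKM in control 4N libraries only, the group where they are highest. Their calls against control 4N in this run are therefore no separate support. RAD51AP1, XRCC3, FANCI, RMI1 and MSH6 reached 0.5 RPKM in libraries of the control groups only. The calls of these genes in Anillin against control cells in this run are likewise no separate support. The medians of the 18 members tested in this run were 0.47 on RPKM and 0.79 on RPM in control 4N against 2N, 0.08 and 0.25 in Anillin 4N against 2N, and -0.31 and -0.69 in Anillin 2N against control 2N. FANCD2 and FANCI there lost their call between the Anillin gates (adjusted p = 0.15 and 0.276). The cause of the other moves was not tested: in Anillin 4N against control 4N, 1 member (ATM) was higher with library totals only, quantile scaling or the 2 groups fitted alone; in control 4N against 2N, 2 were lower with quantile scaling; in Anillin 4N against 2N, 3 were higher with limma-voom, 1 (PALB2) was lower with quantile scaling and 692 genes, not 1078, passed without a filter. Leaving out 1 library gave 0 to 1 member higher in Anillin 4N against control 4N (1 without Anillin 4N replicate 3), 0 to 1 lower in control 4N against 2N (0 without control 4N replicate 2), 0 to 1 higher in Anillin 2N against control 2N (1 without control 2N replicate 2), and 3 to 5 members and 600 to 885 genes in Anillin 4N against 2N, where the gene count was 600 without Anillin 2N replicate 2, 674 without replicate 3 of that group and 617 without Anillin 4N replicate 2. Of called genes, 46.6% were higher in Anillin 4N against control 4N but 61.9% with library totals only, 51.9% against 38.6% in control 4N against 2N (64.4% on RPKM), and 43.2% against 64.6% for the interaction (54.1% with quantile scaling, 31.5% on RPKM); between the Anillin gates the share was 61.1% and 72.9% on RPKM. Library totals moved the median of all genes by at most 0.10. Depth limits the lowest values, down to 21 reads for a member. No paired analysis was possible because the sample numbers in the labels run through all 12 samples and pair none across groups.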
